A study of Homo sapiens with 8 samples.

Results

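The change between day 1 and day 2 of co-culture rests on 4 of the 8 libraries of the series, chosen by the group, day and replicate number in the library titles. They are 2 D2_Co libraries (replicates 1 and 3) and 2 D1_Co libraries (replicates 2 and 3). All libraries hold polyA RNA of H9, an established line of human embryonic stem cells that grows in the primed pluripotent state, and the series is about competition between cells of different species. D2_Co is day 2 and D1_Co is day 1 of what the titles mark as Co, read here as co-culture. D3_Co (day 3 of co-culture) and D3_Control (day 3, read as separate culture), with 2 libraries each, entered the model for its estimate of the spread, and D3_Co also gives the levels of the following day.

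The labels give the same cell line and cell type to all groups, and no genotype, transgene or drug that differs between them. Per the labels' protocols the human cells grew on Matrigel in mTeSR1 medium, or on inactivated mouse fibroblasts in a medium with the growth factor FGF2 and the WNT pathway inhibitor IWR1. The sources used here do not tell which library had which. Neither the partner cells nor the way human cells were separated from them is named in the labels. No day 1 or day 2 library of separate culture was analysed here, so time in culture and time in co-culture cannot be told apart. Whether the libraries of a group came from separate cultures is not in the labels, so the p-values reflect no more than the spread among these samples. In bulk RNA, fewer cells of a type and less RNA per cell cannot be told apart.

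Levels are in FPKM (fragments per kilobase of a transcript, divided by the fragments mapped in the library), after values that stood on wrong rows of the deposited table had been returned to their genes. Differences are D2_Co minus D1_Co on the log2(FPKM + 1) scale, which understates the change of low genes, with their standard errors (SE). A gene is called where the p-value of limma, a linear model fitted across all genes, is under 0.05 after Benjamini-Hochberg adjustment. The summed FPKM of a library lay between 421825 and 440675, and read numbers are unknown. The 13 markers of human pluripotent cells were all present, with summed levels of 2580 to 2667 FPKM in D2_Co and 2529 to 2540 FPKM in D1_Co. Across genes, log2 levels correlated at 0.9925 between the D2_Co libraries, at 0.9922 between the D1_Co libraries, and at 0.9859 to 0.9878 between a D2_Co and a D1_Co library.

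Several of the programs described here have well-known switches. Serum response factor binds CArG boxes in the promoters of muscle actins and other contractile genes, and its co-activator MRTF is held back by free actin monomers. SREBP factors turn on the genes of sterol synthesis and uptake when membranes run low in cholesterol, while LXR receptors turn on efflux genes when oxysterols accumulate. NF-kB turns on cytokines and its own inhibitors after inflammatory signals.

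limma called 883 of 12449 genes between the days (7.09%), of which 526 were higher (4.23%) and 357 lower (2.87%) in D2_Co. Most of the differences were small, and 46 called genes (0.37%) differed by over 2-fold on the log2(FPKM + 1) scale. On that scale a low gene can fall short of this mark although its FPKM changed by over 2-fold. At an unadjusted p under 0.05 there were 3296 genes (26.5%). Both D2_Co values lay above both D1_Co values in 3801 genes (30.5%) and below both in 3300 genes (26.5%), which is the background for the counts of non-overlapping genes given here. The calls leaned on all 4 libraries. Without D2_Co replicate 1, 67 of the 883 calls were kept, without D2_Co replicate 3 there were 51, without D1_Co replicate 2 there were 127 and without D1_Co replicate 3 there were 85. A group then held 1 library, which was assumed to vary like the other groups. With only the D2_Co and D1_Co libraries in the fit 140 calls were kept, and with no filter on low values 279. On the rows as deposited, where many values belong to other genes, 354 were kept and 28 were called in the other direction. Without either D3_Control library, which enter through the spread, 440 and 438 calls were kept, and without either D3_Co library 597.

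**Figure D1:**
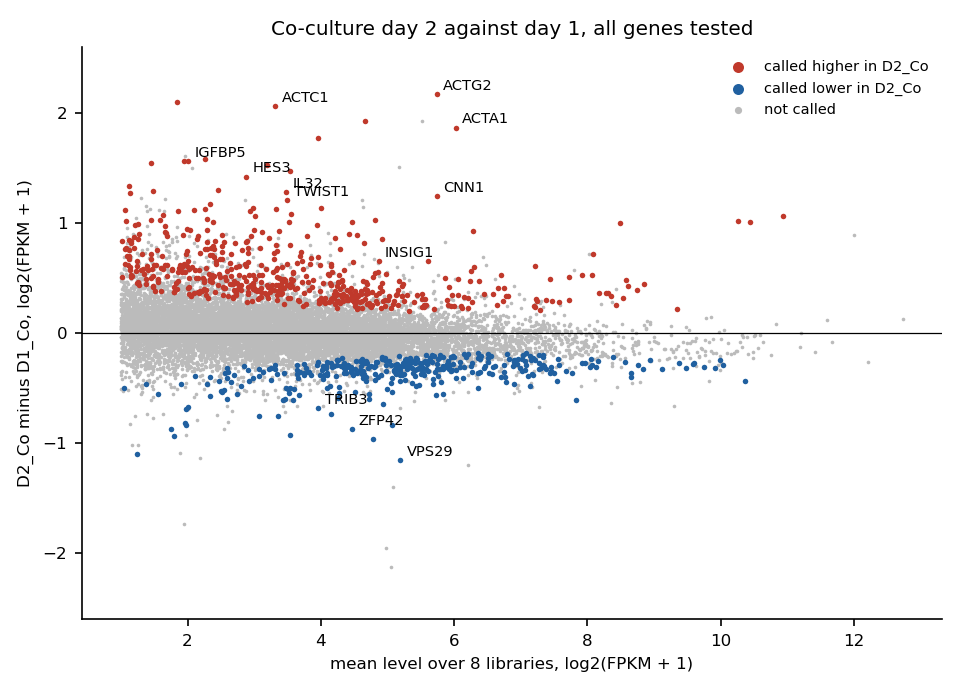
Mean level over the 8 libraries in log2(FPKM + 1) on the horizontal axis against the difference between D2_Co and D1_Co in log2(FPKM + 1) on the vertical axis, 1 point for each of the 12449 genes tested (2 points that were not called lie outside the vertical range). Genes called higher (526) or lower (357) in D2_Co are coloured, and the labelled genes include the muscle actins ACTG2, ACTC1 and ACTA1 near the top, and VPS29 and ZFP42, the lowest of those labelled.

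Muscle actins were among the genes with the largest rises. ACTC1, the cardiac muscle actin, had 19.8 and 17.8 FPKM in D2_Co, against 3.96 and 3.53 FPKM in D1_Co (log2 difference 2.06, SE 0.09, limma adjusted p = 0.000581), a ratio of means of 5.02. ACTG2, the enteric smooth muscle actin, had 86.0 and 91.5 FPKM in D2_Co, against 21.3 and 16.7 FPKM in D1_Co (log2 difference 2.17, SE 0.14, limma adjusted p = 0.00144). ACTA1, the skeletal muscle actin, had 126 and 127 FPKM in D2_Co, against 39.0 and 29.6 FPKM in D1_Co (log2 difference 1.87, SE 0.12, limma adjusted p = 0.00144). In all 3 genes both D2_Co libraries lay far above both D1_Co libraries, and each call held in all 8 fits that left out 1 library. CNN1, the smooth muscle protein calponin, had 88.5 and 94.1 FPKM in D2_Co, against 41.6 and 34.5 FPKM in D1_Co (log2 difference 1.25, SE 0.10, limma adjusted p = 0.0038), and its call also held in all 8 fits. ACTB, the cytoplasmic beta-actin, had 7930.3 and 7658 FPKM in D2_Co, against 7523 and 6735 FPKM in D1_Co and was not called (limma adjusted p = 0.295).

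Of 24 tested genes of the contractile list, 12 rose and 0 fell, and the median difference was 0.28, against 0.01 over all genes. The other 8 that rose were TAGLN (0.61), the actin-binding protein transgelin, FLNA (0.32), the actin crosslinker filamin A, VCL (0.53), the adhesion protein vinculin, ACTN4 (0.30), an actinin that crosslinks actin, and the myosin chains MYL9 (0.72), MYL7 (0.77), MYH9 (0.28) and MYH10 (0.23). In 18 of the 24 genes both D2_Co values lay above both D1_Co values, and in 2 below. Of these 12 calls 5 were kept without D2_Co replicate 1, without D2_Co replicate 3 and without D1_Co replicate 3, and 7 without D1_Co replicate 2. Those of MYL9 and MYH9 were lost without any 1 of the 4 D2_Co and D1_Co libraries, that of MYL7 without these 4 or either D3_Control library, that of ACTN4 without D1_Co replicate 3 or either D2_Co library and that of MYH10 without any 1 of the 8, while that of VCL held in all 8 fits. The rows of ACTC1, ACTA1, ACTG2, CNN1 and FLNA were among those whose values had been moved. With only rows that never moved, 10 genes of the list were tested, 4 were called higher and the median was 0.25. On the rows as deposited the differences of ACTC1, ACTA1 and ACTG2 were -0.60, -2.11 and -2.18. Exons of ACTC1, TAGLN and FLNA overlap other genes, which can make values less certain. Such overlap was found for 6102 of the 12449 genes tested, so it does not set the genes named here apart. The calls of TAGLN and FLNA were lost without D2_Co replicate 1, D2_Co replicate 3 or D1_Co replicate 3, and that of FLNA also without D1_Co replicate 2 or either D3_Control library.

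By day 3 of co-culture the muscle actins stood lower again. ACTC1 had 8.87 and 7.91 FPKM in D3_Co, below D2_Co (log2 difference -1.07, SE 0.09, limma adjusted p = 0.0023). ACTA1 had 59.5 and 56.4 FPKM in D3_Co (log2 difference -1.11, SE 0.12, limma adjusted p = 0.00352) and ACTG2 had 47.9 and 49.8 FPKM in D3_Co (log2 difference -0.85, SE 0.14, limma adjusted p = 0.0116). In the contractile list 2 genes were higher and 15 were lower in D3_Co than in D2_Co, with a median of -0.27, where 8.72% and 7.21% of all genes were called higher and lower. Both comparisons share the D2_Co libraries, so they are not independent of each other.

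**Figure D2:**
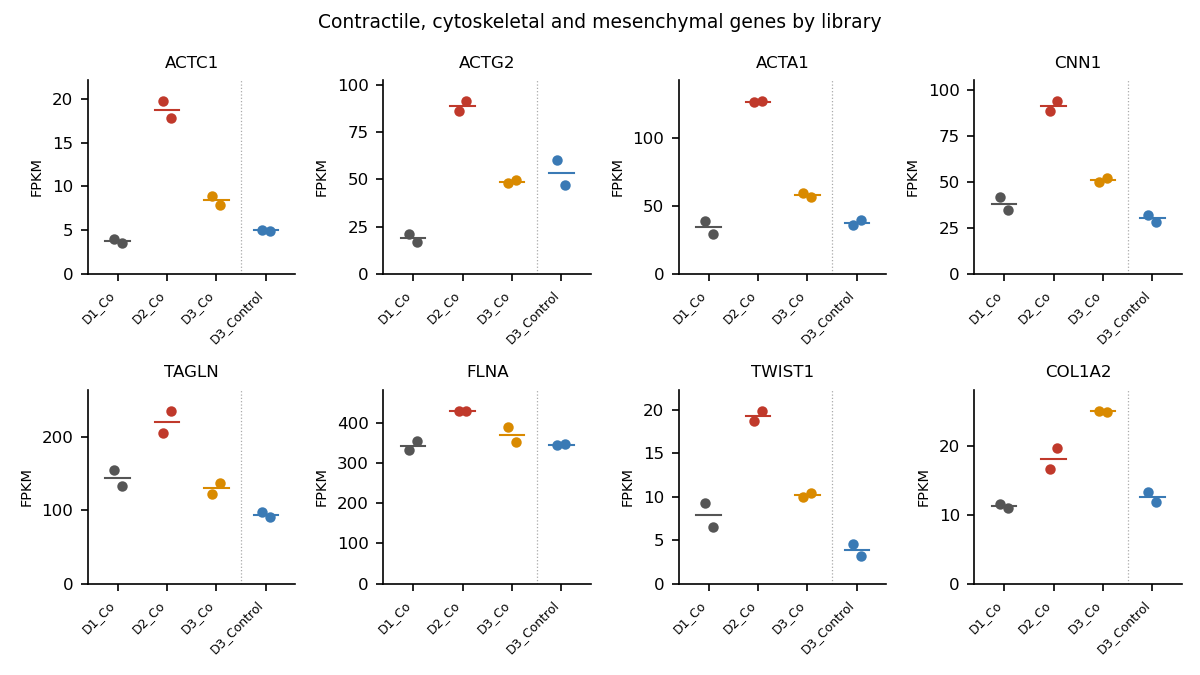
Level in FPKM (vertical axis, from 0) of 8 contractile and mesenchymal genes in each library, by group and in order of day for co-culture, with D3_Control last; points are libraries and bars are group means (2 libraries each). ACTC1, ACTG2, ACTA1, CNN1 and TWIST1 peak in D2_Co, while COL1A2 is highest in D3_Co.

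The promoters of the muscle actins are shown because these genes moved together and their promoters are textbook targets of serum response factor. RefSeq sequences (GRCh38.p14) were searched over the 250 bases before each start for the CArG box, which is CC, then 6 bases that are each A or T, then GG, and which reads as the same motif on both strands. Of the 12 contractile genes that rose, 10 were in the promoter table, and 5 of them (ACTA1, ACTC1, ACTG2, FLNA and MYL7) held a CArG box. Of the genes of the list that did not rise, 4 of 12 held one. Over all tested genes in the table the share was 1.57% (150 of 9550 genes). The capitals mark the matches, and each sequence runs 5′ to 3′ on the strand of its gene and ends at the base before the start.
ACTG2: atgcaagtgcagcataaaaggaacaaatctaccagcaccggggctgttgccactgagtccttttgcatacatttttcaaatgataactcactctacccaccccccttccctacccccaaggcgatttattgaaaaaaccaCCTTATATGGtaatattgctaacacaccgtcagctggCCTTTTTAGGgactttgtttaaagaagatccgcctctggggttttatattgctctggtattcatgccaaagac
ACTC1: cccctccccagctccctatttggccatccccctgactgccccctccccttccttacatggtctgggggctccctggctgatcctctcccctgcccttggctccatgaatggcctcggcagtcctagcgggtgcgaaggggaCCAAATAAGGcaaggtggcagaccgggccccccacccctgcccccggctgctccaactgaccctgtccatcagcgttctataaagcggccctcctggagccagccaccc
ACTA1: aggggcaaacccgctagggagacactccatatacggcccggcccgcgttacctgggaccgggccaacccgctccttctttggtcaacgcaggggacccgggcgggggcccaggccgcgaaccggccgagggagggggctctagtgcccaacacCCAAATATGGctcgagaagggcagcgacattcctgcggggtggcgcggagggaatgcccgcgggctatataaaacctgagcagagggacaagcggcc
MYL7: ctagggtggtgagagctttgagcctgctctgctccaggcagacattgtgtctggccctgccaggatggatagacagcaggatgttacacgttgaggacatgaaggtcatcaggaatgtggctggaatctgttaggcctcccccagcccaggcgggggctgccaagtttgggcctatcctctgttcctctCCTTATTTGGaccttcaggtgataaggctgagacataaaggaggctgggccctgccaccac
The ACTG2 window is chr2:73892758-73893007 on the plus strand, with matches beginning -110 and -73 bases from the start. That of ACTC1 is chr15:34795550-34795799 on the minus strand, before 1 of 3 listed starts, with a match beginning at -109. The ACTA1 window is chr1:229434095-229434344 on the minus strand with a match beginning at -97, and the MYL7 window is chr7:44141333-44141582 on the minus strand with a match beginning at -61. A match describes the letters and shows no binding.

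Some mesenchymal and matrix genes rose, 8 of 28 and 9 of 34 tested. The lists share members, and the 8 mesenchymal genes include CNN1, already counted as contractile, and the integrin ITGA5. TWIST1, a transcription factor of mesenchymal cells, had 18.6 and 19.9 FPKM in D2_Co, against 9.25 and 6.49 FPKM in D1_Co (log2 difference 1.21, SE 0.17, limma adjusted p = 0.0154). COL1A2, a chain of collagen I, had 16.6 and 19.7 FPKM in D2_Co, against 11.6 and 11.03 FPKM in D1_Co (log2 difference 0.63, SE 0.09, limma adjusted p = 0.0168), and LGALS1, the lectin galectin-1, had 53.8 and 63.2 FPKM in D2_Co, against 36.4 and 37.0 FPKM in D1_Co (log2 difference 0.65, SE 0.09, limma adjusted p = 0.0154). The groups did not overlap in these genes, although the D1_Co libraries of TWIST1 lay apart from each other. Of 34 genes of collagens, laminins and other matrix proteins 9 rose and 0 fell (median 0.23), among them COL11A1 (0.61), COL7A1 (0.82) and TNC (0.90), the matrix glycoprotein tenascin C. Of 28 mesenchymal genes 8 rose and 2 fell (median 0.20), and of 12 integrin subunits, which bind cells to matrix, 3 rose and 0 fell. The integrins were ITGA5 (0.46), ITGA7 (0.42) and ITGAV (0.31).

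The members of the mesenchymal list that fell were TGFBI and S100A6. TGFBI, a matrix protein induced by TGF-beta, had 10.1 and 10.8 FPKM in D2_Co, against 16.4 and 16.3 FPKM in D1_Co (log2 difference -0.60, SE 0.07, limma adjusted p = 0.0102). S100A6, a calcium-binding protein, had 0.700 and 0.735 FPKM in D2_Co, against 1.93 and 2.69 FPKM in D1_Co (log2 difference -0.94, SE 0.12, limma adjusted p = 0.0139). In D3_Co, S100A6 had 5.24 and 4.65 FPKM, above both earlier days.

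Some markers of fibroblasts were among the genes that moved. Of 20 tested fibroblast markers 6 rose and 0 fell, and the summed level of the list was 2137 to 2281 FPKM in D2_Co and 1869 to 2059 FPKM in D1_Co. Of the 30 markers, 20 had a mean of at least 1 FPKM in D2_Co and 20 in D1_Co, while 4 and 5 were at 0. DCN, LUM and DPT were listed at 0 in all 8 libraries, and COL3A1 reached at most 0.0083 FPKM in D2_Co and was listed at 0 in D1_Co. COL1A1, another chain of collagen I, had 28.3 and 30.3 FPKM in D2_Co, against 25.3 and 23.1 FPKM in D1_Co. POSTN, the matrix protein periostin, had 0.775 and 0.730 FPKM in D2_Co, against 0.536 and 0.456 FPKM in D1_Co. PDGFRA, a receptor of platelet-derived growth factor, had 0.599 and 0.476 FPKM in D2_Co, against 0.248 and 0.257 FPKM in D1_Co. Both were low but present in all 8 libraries, with both D2_Co values above both D1_Co values, and stood under the minimum mean of 1 FPKM for the test. 3 of the 6 markers that rose, TWIST1, COL1A2 and TAGLN, are among the genes named above. Whether fibroblasts had a part in these values was not tested.

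Without D2_Co replicate 1, D2_Co replicate 3, D1_Co replicate 2 or D1_Co replicate 3 the matrix genes called higher numbered 4, 0, 0 and 0, the mesenchymal genes 4, 2, 3 and 2, and the fibroblast markers 1, 0, 2 and 0. These counts can include genes that were not called with all libraries. Without either D3_Control library the matrix count was 5 and the fibroblast count 3. Integrins called higher numbered 0, 0, 0 and 1. The call of TNC was lost without D2_Co replicate 3, either D1_Co library or either D3_Control library. Calls of COL11A1 and COL7A1 were lost without any 1 of the 4 D2_Co and D1_Co libraries, those of LGALS1 and COL1A2 without D2_Co replicate 3 or either D1_Co library, those of TWIST1 and S100A6 without D1_Co replicate 3 or either D2_Co library, and that of TGFBI without D2_Co replicate 1 or D1_Co replicate 3. Exons of TWIST1, COL7A1, S100A6, ITGA5, ITGA7 and ITGAV overlap other genes.

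The binding proteins of insulin-like growth factors gave some of the larger changes among lower genes. IGFBP5 had 7.78 and 8.09 FPKM in D2_Co, against 2.17 and 1.88 FPKM in D1_Co (log2 difference 1.56, SE 0.09, limma adjusted p = 0.00144), and IGFBP3 had 8.08 and 7.20 FPKM in D2_Co, against 3.34 and 3.24 FPKM in D1_Co (log2 difference 1.01, SE 0.09, limma adjusted p = 0.00505). Both genes were high in D2_Co alone among the 3 days, since IGFBP5 had 1.53 and 1.61 FPKM in D3_Co and IGFBP3 had 3.13 and 3.19 FPKM in D3_Co. They were the 2 of 16 tested genes of the IGF system that rose, and STC1, the hormone stanniocalcin, was the 1 that fell (-0.48). ANKRD1, a target of YAP, the transcriptional co-activator of the Hippo pathway, had 8.85 and 9.36 FPKM in D2_Co, against 4.80 and 3.82 FPKM in D1_Co (log2 difference 0.93, SE 0.14, limma adjusted p = 0.0181) and 1.72 and 2.43 FPKM in D3_Co. In the list of YAP and TEAD targets 3 of 21 genes rose and 0 fell, namely IGFBP3, ANKRD1 and F3 (0.57), and the median was 0.05.

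Of 12 genes of the urokinase and plasminogen system, 3 rose and 1 fell. PLAT, the tissue plasminogen activator, had 27.0 and 25.4 FPKM in D2_Co, against 19.7 and 17.3 FPKM in D1_Co (log2 difference 0.48, SE 0.08, limma adjusted p = 0.0209), and SERPINE2, an inhibitor of such proteases, had 52.0 and 52.5 FPKM in D2_Co, against 76.6 and 78.9 FPKM in D1_Co (log2 difference -0.56, SE 0.08, limma adjusted p = 0.0154). The others that rose were F3, tissue factor, and TFPI (0.62), its inhibitor. PLAU, the urokinase protease, had 119.8 and 129 FPKM in D2_Co, against 126 and 113 FPKM in D1_Co and was not called (limma adjusted p = 0.745). Calls of IGFBP5 and IGFBP3 held in all 8 fits that left out 1 library, and that of STC1 was lost without any 1 of the 4 D2_Co and D1_Co libraries. Those of ANKRD1 and PLAT were lost without D1_Co replicate 3 or either D2_Co library, that of SERPINE2 without any 1 of the 4 D2_Co and D1_Co libraries, that of TFPI without any of these 4 or either D3_Co library, and that of F3 without any library other than D1_Co replicate 2. Exons of IGFBP5, TFPI and PLAU overlap other genes.

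Of 29 tested genes of sterol synthesis 15 rose on day 2. INSIG1, the sterol sensor that holds SREBP back, had 31.3 and 32.0 FPKM in D2_Co, against 19.8 and 19.7 FPKM in D1_Co (log2 difference 0.66, SE 0.05, limma adjusted p = 0.00353). SREBF1, which encodes SREBP1, had 32.6 and 31.2 FPKM in D2_Co, against 20.6 and 22.1 FPKM in D1_Co (log2 difference 0.56, SE 0.05, limma adjusted p = 0.00595). The D2_Co libraries of both genes lay close together and above both D1_Co libraries. In the list 1 gene fell, the median difference was 0.34, and in 26 of them the D2_Co values lay above both D1_Co values. Among the genes that rose the smallest difference was 0.30 in CYP51A1, a demethylase of the pathway.

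The synthase HMGCS1 had 81.5 and 79.4 FPKM in D2_Co, against 48.4 and 50.5 FPKM in D1_Co (log2 difference 0.69, SE 0.17, limma adjusted p = 0.0536) and was not called. Its D3_Co libraries lay apart from each other at 84.0 and 128 FPKM, and it was called without either of them, since the spread then narrowed. PMVK, the phosphomevalonate kinase of the same pathway, was the gene that fell, with 7.005 and 6.87 FPKM in D2_Co, against 8.53 and 9.21 FPKM in D1_Co (log2 difference -0.31, SE 0.07, limma adjusted p = 0.046), and its call was lost without any 1 of the 8 libraries.

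Some genes of fatty acid synthesis and of sterol efflux rose as well. SCD, the stearoyl-CoA desaturase, had 490.2 and 484 FPKM in D2_Co, against 355 and 358 FPKM in D1_Co (log2 difference 0.45, SE 0.04, limma adjusted p = 0.00618), and FADS2, another desaturase, had 349.5 and 356 FPKM in D2_Co, against 277 and 279.8 FPKM in D1_Co (log2 difference 0.34, SE 0.04, limma adjusted p = 0.0112). LPIN1, a phosphatase of lipid synthesis, had 4.82 and 6.22 FPKM in D2_Co, against 2.74 and 2.28 FPKM in D1_Co (log2 difference 0.89, SE 0.12, limma adjusted p = 0.0151). In all 3 genes the groups did not overlap. Of 21 fatty acid genes 7 rose and 0 fell (median 0.19), including FASN (0.52), the fatty acid synthase. Of 12 genes of sterol efflux and transport 3 rose and 0 fell (median 0.05). These were ABCA1, the cholesterol efflux pump, with 3.62 and 3.39 FPKM in D2_Co, against 1.56 and 1.72 FPKM in D1_Co (log2 difference 0.77, SE 0.08, limma adjusted p = 0.00619), NPC1, the lysosomal cholesterol transporter (0.41), and MYLIP, a ubiquitin ligase induced by LXR (0.61).

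On day 3, 3 of 29 sterol synthesis genes were higher and 2 lower in D3_Co than in D2_Co, with a median of 0.10. INSIG1 had 36.2 and 34.0 FPKM in D3_Co (log2 difference 0.15, SE 0.05, limma adjusted p = 0.0921), and ABCA1 had 3.26 and 3.40 FPKM in D3_Co (log2 difference -0.06, SE 0.08, limma adjusted p = 0.628). SREBF1 had 26.3 and 25.9 FPKM in D3_Co, lower than in D2_Co (log2 difference -0.28, SE 0.05, limma adjusted p = 0.0192). Without D2_Co replicate 1, D2_Co replicate 3, D1_Co replicate 2 or D1_Co replicate 3, 2, 2, 4 and 5 of the 15 sterol synthesis genes and 2, 1, 3 and 1 of the 7 fatty acid genes were still called higher. The call of FASN was lost without any 1 of the 4 D2_Co and D1_Co libraries, and that of CYP51A1 also without either D3_Co library. The calls of INSIG1, SREBF1, SCD and ABCA1 held in all 8 fits. That of FADS2 was lost without D1_Co replicate 3 or either D2_Co library, those of NPC1 and MYLIP without D1_Co replicate 2 or either D2_Co library, and that of LPIN1 without D2_Co replicate 3 or D1_Co replicate 3. Exons of SREBF1, HMGCS1, FADS2, LPIN1 and NPC1 overlap other genes.

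**Figure D3:**
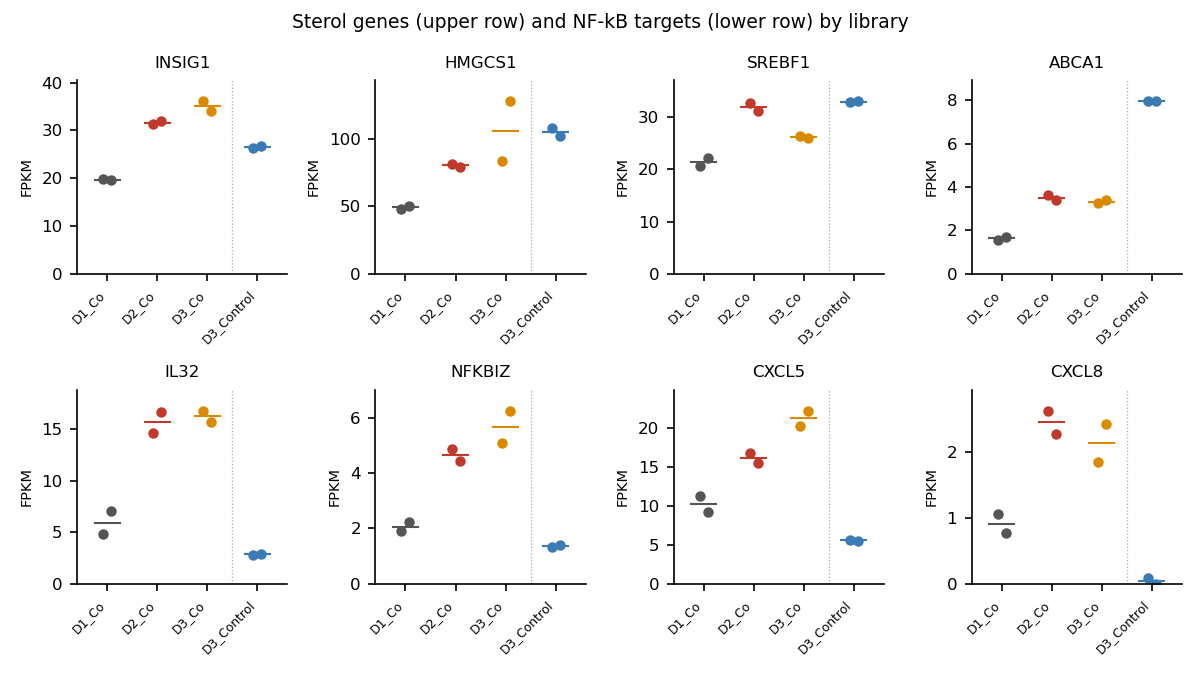
Level in FPKM (vertical axis, from 0) of 4 sterol genes (upper row) and 4 NF-kB targets (lower row) in each library, by group and in order of day for co-culture, with D3_Control last; points are libraries and bars are group means (2 libraries each). In each panel both D2_Co points lie above both D1_Co points, and the D3_Co points of HMGCS1 lie apart at 84.0 and 128 FPKM.

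Of 30 tested targets of NF-kB 10 rose on day 2 and 0 fell. IL32, an inflammatory cytokine, had 14.7 and 16.7 FPKM in D2_Co, against 4.79 and 7.09 FPKM in D1_Co (log2 difference 1.28, SE 0.15, limma adjusted p = 0.0103). NFKBIZ, a nuclear regulator of NF-kB, had 4.86 and 4.44 FPKM in D2_Co, against 1.90 and 2.23 FPKM in D1_Co (log2 difference 0.88, SE 0.11, limma adjusted p = 0.0126), and the chemokine CXCL5 had 16.8 and 15.5 FPKM in D2_Co, against 11.2 and 9.15 FPKM in D1_Co (log2 difference 0.63, SE 0.10, limma adjusted p = 0.0209). Both D2_Co libraries lay above both D1_Co libraries in each, with the D1_Co libraries of IL32 and CXCL5 apart from each other. Differences over the list ran from -0.25 to 1.28 (median 0.24), and in 17 targets both D2_Co values lay above both D1_Co values, in 6 below. The median depended on low genes. With a minimum mean of 5 FPKM, 17 targets were tested, 5 were higher and the median was -0.03. Among rows that never moved the median was 0.02. The summed level of the tested targets was 673 and 677 FPKM in D2_Co, against 670 and 646 FPKM in D1_Co. CXCL8, the chemokine interleukin-8, was low, with 2.64 and 2.29 FPKM in D2_Co, against 1.07 and 0.767 FPKM in D1_Co (log2 difference 0.86, SE 0.14, limma adjusted p = 0.0215). NFKBIA, the inhibitor that ends NF-kB signalling, had 24.0 and 22.3 FPKM in D2_Co, against 19.4 and 18.6 FPKM in D1_Co (log2 difference 0.27, SE 0.06, limma adjusted p = 0.0462). The others were TNFAIP3 (0.76), a feedback inhibitor, LIF (0.60), LTB (0.84), TNFAIP2 (0.30) and the NF-kB subunit RELB (0.31).

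Few parts of the pathway itself were called. Of 20 genes of toll-like receptor signalling and NF-kB subunits, 0 rose and 1 fell, and the median was 0.06. The gene that fell was IRAK1, a kinase below the receptors, with 13.0 and 12.8 FPKM in D2_Co, against 17.7 and 16.0 FPKM in D1_Co (log2 difference -0.36, SE 0.08, limma adjusted p = 0.0479). MYD88, the adaptor of these receptors, had 15.7 and 14.8 FPKM in D2_Co, against 14.8 and 14.6 FPKM in D1_Co (limma adjusted p = 0.628), and the NF-kB subunit RELA had 19.0 and 19.7 FPKM in D2_Co, against 20.0 and 19.2 FPKM in D1_Co (limma adjusted p = 0.881). Of 20 interferon response genes 3 rose, TRIM22 (0.53), ISG15 (0.55) and STAT2 (0.28), and IFITM2 fell (-0.39). Of 18 genes of antigen processing 1 rose and 2 fell. HLA-C, a class I antigen-presenting molecule with close relatives that can share its reads, rose (0.23), and PSME1, an activator subunit of the proteasome, was among those that fell (-0.32).

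The NF-kB targets also stand on few libraries. Without D2_Co replicate 1, D2_Co replicate 3, D1_Co replicate 2 or D1_Co replicate 3 1, 0, 2 and 2 of the 10 calls were kept. Those of TNFAIP3, LIF and TNFAIP2 were lost without any 1 of the 4 D2_Co and D1_Co libraries, that of LTB also without either D3_Control library and that of RELB without any 1 of the 8. The call of IL32 was lost without D2_Co replicate 3, that of NFKBIZ without D1_Co replicate 2 or either D2_Co library, that of CXCL5 without D1_Co replicate 3 or either D2_Co library, that of CXCL8 without any 1 of the 4 D2_Co and D1_Co libraries, and that of NFKBIA without any 1 of the 8 libraries. The calls of ISG15, IFITM2 and PSME1 were lost without any 1 of the 4 D2_Co and D1_Co libraries, those of IRAK1 and HLA-C also without either D3_Control library, that of STAT2 without any 1 of the 8, and that of TRIM22 without D2_Co replicate 1 or D1_Co replicate 3. Exons of IL32, IRAK1, RELA, ISG15, TRIM22, IFITM2, HLA-C and PSME1 overlap other genes.

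Promoters of 2 NF-kB targets are shown for the binding motif of the factor. The kappaB site searched was 10 bases long, GGG, then A or G, 2 bases of any kind, then 2 that are C or T, then CC, on both strands. Of the 10 targets that rose, 8 were in the promoter table, and 6 of them (IL32, CXCL5, NFKBIZ, TNFAIP3, NFKBIA and LTB) held a match in the 250 bases before a start. Of the targets that did not rise, 9 of 16 held one, and over all tested genes in the table the share was 16.0% (1531 of 9550 genes).
IL32: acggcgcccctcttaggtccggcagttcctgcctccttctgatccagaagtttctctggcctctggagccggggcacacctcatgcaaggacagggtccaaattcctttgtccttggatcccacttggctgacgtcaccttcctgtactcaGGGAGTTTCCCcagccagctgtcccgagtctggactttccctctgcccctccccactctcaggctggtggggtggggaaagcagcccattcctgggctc
CXCL5: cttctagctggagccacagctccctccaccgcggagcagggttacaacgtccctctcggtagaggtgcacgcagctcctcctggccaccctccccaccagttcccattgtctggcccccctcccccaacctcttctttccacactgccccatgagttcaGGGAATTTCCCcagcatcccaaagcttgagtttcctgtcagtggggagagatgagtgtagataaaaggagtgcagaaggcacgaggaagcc
The capitals mark matches on the 2 strands that overlap by 9 bases. The IL32 window is chr16:3065153-3065402 on the plus strand, before 1 of 2 listed starts, with matches beginning at -99 and -98. That of CXCL5 is chr4:73998678-73998927 on the minus strand, with matches beginning at -91 and -90. These letters are a description of the window only.

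Of 78 cytosolic ribosomal protein genes 14 fell on day 2 and 0 rose, with differences from -0.67 to 0.08 over the list. RPL14 had 852 and 871 FPKM in D2_Co, against 1066 and 1080.1 FPKM in D1_Co (log2 difference -0.32, SE 0.04, limma adjusted p = 0.0154), RPS27A had 345 and 359 FPKM in D2_Co, against 447 and 456 FPKM in D1_Co (log2 difference -0.36, SE 0.05, limma adjusted p = 0.0154), and RPL7 had 354 and 334 FPKM in D2_Co, against 452 and 458 FPKM in D1_Co (log2 difference -0.40, SE 0.06, limma adjusted p = 0.0162). The median was -0.22, and in 68 of 78 both D2_Co values lay below both D1_Co values. Of 58 nuclear genes of oxidative phosphorylation 15 fell and 0 rose, with a median of -0.20, and in 48 both D2_Co values lay below both D1_Co values. COX8A (-0.27) and COX5B (-0.33), subunits of cytochrome c oxidase, and UQCRH (-0.36), a subunit of complex III, had the lowest p-values among them. NDUFA5, a subunit of complex I, had 4.69 and 3.71 FPKM in D2_Co, against 8.24 and 7.23 FPKM in D1_Co (log2 difference -0.75, SE 0.16, limma adjusted p = 0.0388).

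Some genes that build ribosomes and charge tRNAs also fell. Of 47 ribosome biogenesis genes and MYC targets 10 fell and 0 rose (median -0.18), among them LYAR (-0.60), a nucleolar protein, POLR1B (-0.30), a subunit of RNA polymerase I, and ODC1 (-0.34), the decarboxylase of polyamine synthesis. Of 20 aminoacyl-tRNA synthetases 4 fell and 0 rose (median -0.15), including KARS (-0.24), FARSB (-0.32) and FARSA (-0.27). MYC itself had 31.5 and 29.2 FPKM in D2_Co, against 33.1 and 31.0 FPKM in D1_Co and was not called (limma adjusted p = 0.47), and neither was MYCN with 20.2 and 18.1 FPKM in D2_Co, against 14.3 and 16.2 FPKM in D1_Co (limma adjusted p = 0.0703).

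Transcript length moved with these differences. Protein-coding genes were placed in 5 equal classes by their longest annotated transcript, and 7.19% of the shortest class but 0.693% of the longest were lower in D2_Co. Conversely, 2.64% of the shortest class and 4.46% of the longest were higher. The median difference was -0.08 in the shortest and 0.06 in the longest class, while libraries of a group differed in any class by at most 0.03. Median transcript lengths were 1842 bases for the ribosomal protein genes and 1678 bases for those of oxidative phosphorylation, against 3606 bases over all genes. With values centred by transcript length, a setting chosen after seeing the data, 7 ribosomal protein genes, 4 of oxidative phosphorylation, 8 of ribosome biogenesis and 1 tRNA synthetase were lower, while 10 contractile, 12 sterol synthesis and 10 NF-kB genes were higher. The median of the ribosomal protein, oxidative phosphorylation, ribosome biogenesis and synthetase lists was then -0.15, against -0.22 for the ribosomal protein genes, -0.20 for oxidative phosphorylation, -0.18 for ribosome biogenesis and -0.15 for the synthetases without the centring.

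**Figure D4:**
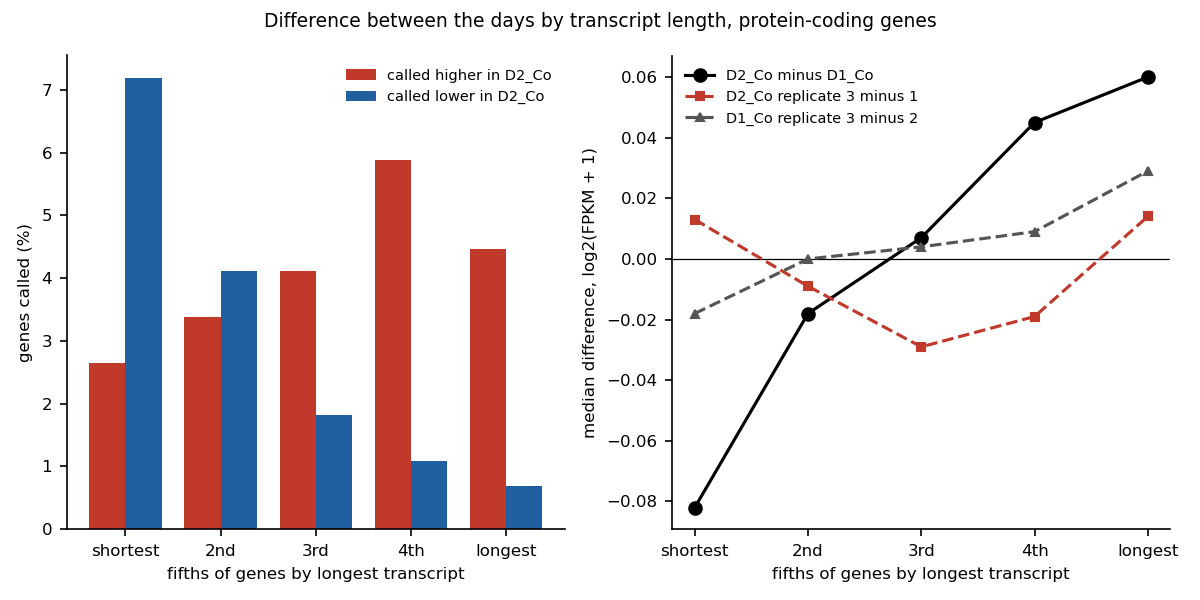
Protein-coding genes in 5 classes of 2310 genes by longest annotated transcript (horizontal axes, shortest to longest). Left, the share in percent called higher and lower in D2_Co, where the lower share goes from 7.19% in the shortest to 0.693% in the longest class; right, the median difference in log2(FPKM + 1) between the days (solid) and between replicates (dashed), from -0.08 to 0.06 between the days and within 0.03 of 0 between replicates.

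The counts of genes that fell changed with single libraries. Without D2_Co replicate 1, D2_Co replicate 3, D1_Co replicate 2 or D1_Co replicate 3 0, 0, 1 and 0 of the 14 ribosomal protein genes, 0 of the 15 of oxidative phosphorylation each time, 0, 0, 0 and 1 of the 10 of ribosome biogenesis and 0 of the 4 synthetases each time were still called. Without either D3_Co library 10, 5, 6 and 2 were, and without either D3_Control library 6, 4, 3 and 0. Calls of RPL14, RPS27A, RPL7, COX8A, COX5B, POLR1B and ODC1 were lost without any 1 of the 4 D2_Co and D1_Co libraries. Those of UQCRH, NDUFA5, KARS and FARSB were lost without these or either D3_Control library, that of FARSA without any 1 of the 8, and that of LYAR without D1_Co replicate 2 or either D2_Co library. Exons of RPS27A, COX8A, KARS and FARSA overlap other genes, and ribosomal protein genes have near-identical pseudogenes that can share their reads. With only the D2_Co and D1_Co libraries in the fit, 7 genes of the contractile list, 6 of sterol synthesis and 1 of the NF-kB targets were higher, and 0 cytosolic ribosomal protein genes, 1 of oxidative phosphorylation and 0 of ribosome biogenesis were lower. Quantile normalization left 3 cytosolic ribosomal protein genes, 0 of oxidative phosphorylation and 2 of ribosome biogenesis lower.

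**Figure D5:**
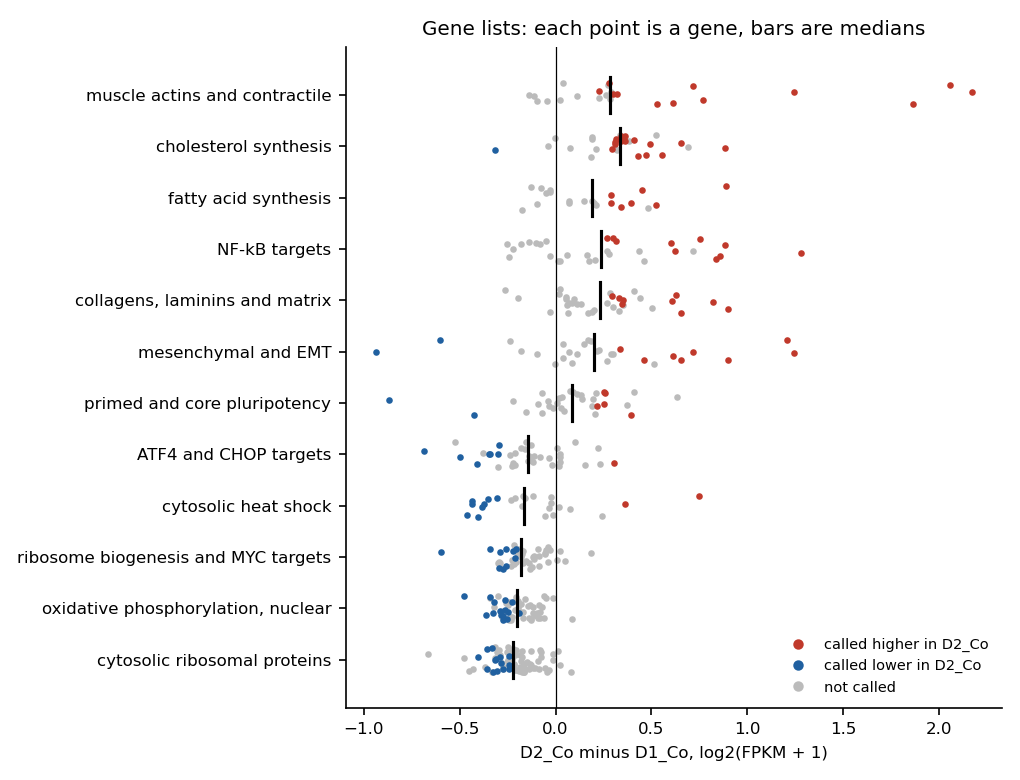
Difference between D2_Co and D1_Co in log2(FPKM + 1) (horizontal axis) for each tested gene of 12 lists (rows), with called genes coloured and a black bar at the median of each list. The contractile, sterol and NF-kB lists lie to the right with medians of 0.28, 0.34 and 0.24, and the oxidative phosphorylation and ribosomal protein lists to the left with medians of -0.20 and -0.22. With a minimum mean of 5 FPKM the NF-kB median was -0.03.

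Of 24 genes of chaperones of the cytosol and mitochondria 8 fell and 2 rose on day 2 (median -0.17). HSPA8, the constitutive HSP70 chaperone, had 1149.5 and 1197 FPKM in D2_Co, against 1541 and 1630.2 FPKM in D1_Co (log2 difference -0.43, SE 0.05, limma adjusted p = 0.0115), and HSPE1, the mitochondrial HSP10, had 98.3 and 95.3 FPKM in D2_Co, against 133 and 134 FPKM in D1_Co (log2 difference -0.46, SE 0.04, limma adjusted p = 0.00505). DNAJA1, a co-chaperone of HSP70, also fell (-0.35). The genes that rose encode small heat shock proteins. HSPB8 had 13.0 and 12.9 FPKM in D2_Co, against 7.56 and 7.09 FPKM in D1_Co (log2 difference 0.75, SE 0.07, limma adjusted p = 0.00595), and HSPB1, which binds actin filaments, had 327 and 351 FPKM in D2_Co, against 281 and 247 FPKM in D1_Co (log2 difference 0.36, SE 0.07, limma adjusted p = 0.0362).

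Of 37 targets of ATF4 and CHOP, factors of the integrated stress response, 7 fell and 1 rose (median -0.14). TRIB3, a pseudokinase induced by them, had 14.5 and 13.7 FPKM in D2_Co, against 23.4 and 23.0 FPKM in D1_Co (log2 difference -0.69, SE 0.08, limma adjusted p = 0.0102), and CHAC1, which breaks down glutathione, had 33.2 and 33.3 FPKM in D2_Co, against 47.0 and 42.4 FPKM in D1_Co (log2 difference -0.41, SE 0.08, limma adjusted p = 0.0279). CEBPB (-0.50), a transcription factor, and PSAT1 (-0.35), an enzyme of serine synthesis, also fell, and the cystine transporter SLC7A11 (0.30) rose. ATF4 had 233 and 247 FPKM in D2_Co, against 263 and 265 FPKM in D1_Co (limma adjusted p = 0.211), and DDIT3, which encodes CHOP, had 5.38 and 4.40 FPKM in D2_Co, against 5.85 and 7.51 FPKM in D1_Co (limma adjusted p = 0.253). Neither was called.

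In the endoplasmic reticulum the picture was mixed, with 3 of 29 genes higher and 3 lower. MANF (-0.28), a secreted stress protein, and HERPUD1 (-0.36), a part of the degradation machinery, fell, and SEC24D (0.35), a coat protein of transport vesicles, rose. HSPA5, the chaperone BiP, had 219 and 212 FPKM in D2_Co, against 225 and 226 FPKM in D1_Co and was not called (limma adjusted p = 0.359). HMOX1, the heme oxygenase, fell, with 23.5 and 22.4 FPKM in D2_Co, against 38.2 and 34.9 FPKM in D1_Co (log2 difference -0.65, SE 0.08, limma adjusted p = 0.0136), as did CBR1, a carbonyl reductase, with 7.20 and 6.71 FPKM in D2_Co, against 11.9 and 12.6 FPKM in D1_Co (log2 difference -0.74, SE 0.10, limma adjusted p = 0.0138). TXNRD1, the thioredoxin reductase, rose (0.25), and the list of oxidative stress genes had 2 higher and 2 lower of 26. MT1X, a zinc-binding metallothionein, had 60.0 and 59.4 FPKM in D2_Co, against 42.4 and 37.6 FPKM in D1_Co (log2 difference 0.57, SE 0.08, limma adjusted p = 0.0161), and its relative MT1E rose as well (0.58), giving 2 higher and 0 lower of 13 (median 0.25).

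Calls of HSPE1 and HSPB8 held in all 8 fits, and that of TRIB3 was lost without D2_Co replicate 3. Those of HSPA8 and MT1X were lost without D1_Co replicate 3 or either D2_Co library, that of HSPB1 without these or either D3_Control library, and that of HMOX1 without D1_Co replicate 2 or either D2_Co library. Those of DNAJA1, CEBPB, PSAT1, CHAC1, MANF, SEC24D, CBR1 and MT1E were lost without any 1 of the 4 D2_Co and D1_Co libraries, and those of SLC7A11, HERPUD1 and TXNRD1 without any 1 of the 8. Without D2_Co replicate 1, D2_Co replicate 3, D1_Co replicate 2 or D1_Co replicate 3 the heat shock genes called lower numbered 1, 1, 2 and 2, and the ATF4 and CHOP targets 1, 0, 1 and 1. The row of SEC24D was unsettled in the realignment. Exons of HSPA8, HSPE1, CEBPB, DDIT3, SLC7A11, CBR1 and MT1X overlap other genes.

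The core pluripotency factors gave no call for POU5F1 or SOX2. POU5F1 had 739 and 734 FPKM in D2_Co, against 763 and 787 FPKM in D1_Co (limma adjusted p = 0.418), and SOX2 had 125 and 117 FPKM in D2_Co, against 119 and 116 FPKM in D1_Co (limma adjusted p = 0.692). NANOG fell, with 34.3 and 34.4 FPKM in D2_Co, against 46.6 and 46.4 FPKM in D1_Co (log2 difference -0.43, SE 0.06, limma adjusted p = 0.0137). ZFP42, also called REX1, a zinc finger marker of pluripotent cells, had 6.01 and 5.82 FPKM in D2_Co, against 10.97 and 12.4 FPKM in D1_Co (log2 difference -0.87, SE 0.06, limma adjusted p = 0.00297). Both D2_Co values of NANOG and ZFP42 lay below both D1_Co values, and in D3_Co ZFP42 had 30.2 and 30.8 FPKM, above either earlier day (log2 difference 2.19, SE 0.06, limma adjusted p = 4.39e-05 for D3_Co minus D2_Co). DNMT3B, a de novo DNA methyltransferase high in primed cells, rose, with 389 and 351 FPKM in D2_Co, against 269.9 and 293 FPKM in D1_Co (log2 difference 0.39, SE 0.07, limma adjusted p = 0.0238), and so did DNMT3A (0.25) and PODXL (0.26), a surface sialomucin. Of 32 genes of the primed and core list 5 rose and 2 fell (median 0.09).

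Of 6 tested genes of the naive state, KLF5 rose, with 11.6 and 11.6 FPKM in D2_Co, against 7.91 and 6.57 FPKM in D1_Co (log2 difference 0.61, SE 0.10, limma adjusted p = 0.0238), and NODAL fell. KLF4 had 3.01 and 2.76 FPKM in D2_Co, against 2.36 and 1.88 FPKM in D1_Co and was not called (limma adjusted p = 0.102). Of 20 neuroectoderm genes only 3 reached the level for the test. NES, the filament protein nestin, rose, with 209.7 and 221 FPKM in D2_Co, against 158 and 148 FPKM in D1_Co (log2 difference 0.49, SE 0.05, limma adjusted p = 0.00872), as did the transcription factor SOX3, with 13.7 and 14.8 FPKM in D2_Co, against 9.39 and 8.93 FPKM in D1_Co (log2 difference 0.59, SE 0.07, limma adjusted p = 0.0102). The other gene tested was not called, with a difference of -0.14 and both D2_Co values below both D1_Co values. HES3, a repressor of the HES family, had 7.15 and 6.50 FPKM in D2_Co, against 1.54 and 2.35 FPKM in D1_Co (log2 difference 1.42, SE 0.13, limma adjusted p = 0.00505), and its D2_Co values lay well above those of D1_Co.

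Of 7 tested genes of early mesendoderm 3 fell on day 2 and 0 rose (median -0.33). EOMES, a T-box factor of the primitive streak, had 0.989 and 1.60 FPKM in D2_Co, against 3.67 and 4.11 FPKM in D1_Co (log2 difference -1.10, SE 0.15, limma adjusted p = 0.0138), and the homeobox gene MIXL1 had 2.95 and 3.10 FPKM in D2_Co, against 5.09 and 5.90 FPKM in D1_Co (log2 difference -0.69, SE 0.12, limma adjusted p = 0.0246). CER1, a secreted antagonist of NODAL, had 242 and 264 FPKM in D2_Co, against 367 and 319.7 FPKM in D1_Co (log2 difference -0.44, SE 0.10, limma adjusted p = 0.0432). The groups did not overlap, and the D2_Co libraries lay low in each. On day 3 of co-culture EOMES had 0.150 and 0.142 FPKM in D3_Co, MIXL1 had 1.48 and 1.87 FPKM in D3_Co and CER1 had 97.4 and 100.3 FPKM in D3_Co, again lower than D2_Co. Of the 7 genes 6 were called lower and 1 higher in D3_Co than in D2_Co, beside 7.21% and 8.72% of all genes.

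Signals that direct these fates moved in part. The ligand NODAL fell, with 42.4 and 44.5 FPKM in D2_Co, against 55.7 and 56.8 FPKM in D1_Co (log2 difference -0.36, SE 0.05, limma adjusted p = 0.014), while LEFTY1, its secreted inhibitor, rose, with 139 and 126 FPKM in D2_Co, against 95.4 and 104 FPKM in D1_Co (log2 difference 0.41, SE 0.08, limma adjusted p = 0.0334), and 1 of 18 genes of the NODAL list rose and 2 fell. WNT3, the ligand of the primitive streak, fell (-0.50), as did WLS (-0.67), which carries WNT ligands to the surface, and the WNT target SP5 (-0.84). LGR4 (0.36), a receptor that strengthens WNT signals, and SFRP1 (0.29), an antagonist, rose, giving 2 higher and 3 lower of 18. Of 14 BMP genes ID3, with 45.9 and 49.9 FPKM in D2_Co, against 70.7 and 70.8 FPKM in D1_Co (log2 difference -0.55, SE 0.07, limma adjusted p = 0.0107), and ID2 (-0.61) fell, and ID1 had 59.1 and 60.9 FPKM in D2_Co, against 59.0 and 62.1 FPKM in D1_Co and was not called (limma adjusted p = 0.906).

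Of 21 genes of FGF signalling and its feedback, 2 rose and 4 fell. DUSP5, a nuclear phosphatase of ERK, had 22.0 and 22.6 FPKM in D2_Co, against 33.9 and 32.5 FPKM in D1_Co (log2 difference -0.56, SE 0.05, limma adjusted p = 0.00505), and SPRY4 (-0.31) and DUSP4 (-0.46), further brakes on ERK, also fell. DUSP6, the cytoplasmic phosphatase of ERK, had 44.2 and 38.9 FPKM in D2_Co, against 47.9 and 51.9 FPKM in D1_Co and was not called (limma adjusted p = 0.0793). ETV1 (0.31), an ETS transcription factor, and the receptor FGFR4 (0.35) rose. FOS, an immediate early gene, fell, with 9.38 and 7.11 FPKM in D2_Co, against 20.1 and 13.4 FPKM in D1_Co (log2 difference -0.93, SE 0.20, limma adjusted p = 0.0398), and was the 1 of 21 such genes called, on a row unsettled in the realignment. EGR1, also on an unsettled row, had 7.85 and 5.95 FPKM in D2_Co, against 16.0 and 8.09 FPKM in D1_Co and was not called (limma adjusted p = 0.166).

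Among these genes the calls of ZFP42, DUSP5 and HES3 held in all 8 fits that left out 1 library. That of NES was lost without D2_Co replicate 3, that of SOX3 without D2_Co replicate 3 or D1_Co replicate 3, that of ID3 without D2_Co replicate 1 or D1_Co replicate 3, that of EOMES without D2_Co replicate 1 or either D1_Co library, and those of KLF5 and ID2 without D1_Co replicate 3 or either D2_Co library. NANOG, DNMT3B, NODAL, LEFTY1, MIXL1, WNT3, WLS, SP5, LGR4 and ETV1 were not called without any 1 of the 4 D2_Co and D1_Co libraries. DNMT3A, PODXL and FGFR4 also lost theirs without either D3_Control library, CER1 and SPRY4 without either D3_Co library, and SFRP1 and DUSP4 without any 1 of the 8. FOS was called without D1_Co replicate 3 but in none of the other 7 fits. The row of SFRP1 was unsettled. Exons of POU5F1, NODAL, LEFTY1, WLS, ID2 and DUSP6 overlap other genes.

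Genes of p53, apoptosis and cell competition, which the subject of the series brings up, were called at shares near the background. Of 41 p53 targets 2 rose, among them CCNG2 (0.54), and PERP (-0.29) fell. CDKN1A, the cell cycle inhibitor p21, had 33.5 and 33.9 FPKM in D2_Co, against 34.9 and 29.4 FPKM in D1_Co (limma adjusted p = 0.707), and MDM2, which degrades p53, had 23.7 and 23.9 FPKM in D2_Co, against 19.8 and 21.0 FPKM in D1_Co (limma adjusted p = 0.0554). Neither was called, nor was GDF15, a secreted p53 and stress target, with 17.3 and 20.4 FPKM in D2_Co, against 15.9 and 15.4 FPKM in D1_Co (limma adjusted p = 0.113). In D3_Co GDF15 had 36.4 and 33.9 FPKM, higher than in D2_Co (log2 difference 0.87, SE 0.08, limma adjusted p = 0.00293).

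Of 26 pro-apoptotic genes BMF, a BH3-only protein, rose, with 5.60 and 6.31 FPKM in D2_Co, against 3.42 and 3.18 FPKM in D1_Co (log2 difference 0.69, SE 0.09, limma adjusted p = 0.0126). Of 11 anti-apoptotic genes 0 were called by limma, and 1 was with quantile normalization. BCL2L1 had 48.9 and 50.8 FPKM in D2_Co, against 54.9 and 51.8 FPKM in D1_Co (limma adjusted p = 0.468) and MCL1 had 98.6 and 92.2 FPKM in D2_Co, against 98.7 and 96.2 FPKM in D1_Co (limma adjusted p = 0.746). Of 31 genes named in cell competition 2 rose, COL17A1, a collagen of cell junctions, with 4.36 and 4.74 FPKM in D2_Co, against 1.80 and 1.47 FPKM in D1_Co (log2 difference 1.08, SE 0.12, limma adjusted p = 0.0092), and FLNA.

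Calls among genes of the cell cycle stand beside 4.23% of all genes called higher and 2.87% called lower. Of 55 genes of DNA replication and the G1/S step 2 fell, CCNE1 (-0.30), cyclin E1, and PRIM1 (-0.38), a primase, and MCM2 of the replicative helicase had 58.6 and 55.3 FPKM in D2_Co, against 52.5 and 56.2 FPKM in D1_Co (limma adjusted p = 0.587). Of 42 genes of G2/M and mitosis 4 rose and 1 fell, with INCENP (0.26), ECT2 (0.29) and BUB1 (0.22) higher and CKS1B (-0.22) lower, and CCNB1, cyclin B1, had 68.3 and 65.7 FPKM in D2_Co, against 68.0 and 70.3 FPKM in D1_Co (limma adjusted p = 0.579). Of 35 genes of glycolysis and hypoxia 2 fell, LDHA, the lactate dehydrogenase, with 187 and 192 FPKM in D2_Co, against 254 and 236 FPKM in D1_Co (log2 difference -0.37, SE 0.05, limma adjusted p = 0.0168), and the glucose transporter SLC2A3 (-0.30). GAPDH of the same pathway had 4219.5 and 4323 FPKM in D2_Co, against 4879 and 5382 FPKM in D1_Co (limma adjusted p = 0.0583) and was not called.

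Of the calls in these lists, that of COL17A1 was lost without D2_Co replicate 3, that of BMF without D2_Co replicate 3 or D1_Co replicate 3, and that of LDHA without D1_Co replicate 2 or either D2_Co library. PERP, CCNE1, PRIM1 and SLC2A3 were not called without any 1 of the 4 D2_Co and D1_Co libraries, CCNG2, ECT2 and BUB1 also not without either D3_Control library, and INCENP and CKS1B not without any 1 of the 8. Rows of CDKN1A, BCL2L1, COL17A1 and PRIM1 were unsettled in the realignment. Exons of CDKN1A, MDM2, BMF, BCL2L1, MCL1, MCM2, COL17A1, PRIM1, MYCN and GAPDH overlap other genes.

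Short and structural RNA rows held some of the largest differences, in libraries made from polyA RNA. MIR3064 (chr17:64500774-64500839, GENCODE 29, GRCh38) had 45.4 and 36.6 FPKM in D2_Co, against 8.46 and 11.8 FPKM in D1_Co (log2 difference 1.92, SE 0.30, limma adjusted p = 0.0198), and MIR5047 (chr17:64501214-64501313) had 22.3 and 25.3 FPKM in D2_Co, against 5.93 and 6.61 FPKM in D1_Co (log2 difference 1.77, SE 0.13, limma adjusted p = 0.00273). Both are hairpins inside DDX5, an RNA helicase gene at chr17:64499616-64508199, and DDX5 itself had 105 and 97.8 FPKM in D2_Co, against 106 and 99.4 FPKM in D1_Co (limma adjusted p = 0.888). These rows count fragments over the hairpin and not the mature miRNA. SNORD2, a snoRNA at chr3:186784796-186784864 inside EIF4A2, had 16.6 and 20.6 FPKM in D2_Co, against 5.35 and 6.73 FPKM in D1_Co (log2 difference 1.48, SE 0.29, limma adjusted p = 0.0333), and EIF4A2 had 47.6 and 46.6 FPKM in D2_Co, against 38.5 and 41.7 FPKM in D1_Co (limma adjusted p = 0.0866).

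Of 142 tested snoRNA rows 13 were higher and 0 lower (median 0.45). Of 26 rows of mitochondrial rRNA and tRNA 5 were higher and 0 lower (median 0.63), and they held 3.68% and 3.42% of FPKM in D2_Co, against 2.04% and 1.62% in D1_Co. RNR1, the mitochondrial 12S rRNA, had 2219 and 2076 FPKM in D2_Co, against 1170.0 and 962 FPKM in D1_Co (log2 difference 1.02, SE 0.14, limma adjusted p = 0.0153), and was chosen after its values were seen. Of 9 cytosolic rRNA rows 3 were lower and 0 higher, and RNA18SN1, an 18S rRNA row, had 219 and 190.2 FPKM in D2_Co, against 283 and 341 FPKM in D1_Co (log2 difference -0.61, SE 0.10, limma adjusted p = 0.025). In their share of FPKM the groups overlapped. All cytosolic rRNA rows together held 0.31% and 0.21% in D2_Co, against 0.237% and 0.53% in D1_Co replicates 2 and 3. HIST3H2A, a histone gene, had 17.2 and 9.54 FPKM in D2_Co, against 4.12 and 3.52 FPKM in D1_Co (log2 difference 1.52, SE 0.23, limma adjusted p = 0.0187), and its D2_Co libraries lay apart. How far RNA selection or handling had a part in these rows was not tested.

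A few other genes completed the ends of the ranking. ARHGAP33, a GTPase-activating protein, had 9.79 and 10.7 FPKM in D2_Co, against 3.56 and 4.69 FPKM in D1_Co (log2 difference 1.14, SE 0.14, limma adjusted p = 0.0126). VPS29, a subunit of the retromer that sorts endosomal cargo, had 22.6 and 19.8 FPKM in D2_Co, against 46.8 and 50.1 FPKM in D1_Co (log2 difference -1.16, SE 0.27, limma adjusted p = 0.0494), the largest fall by log2 difference among called genes, and SNX1, a sorting nexin of the same complex, had 7.14 and 7.98 FPKM in D2_Co, against 16.1 and 11.2 FPKM in D1_Co (log2 difference -0.75, SE 0.15, limma adjusted p = 0.032). BUD23, a methyltransferase of 18S rRNA, had 26.6 and 20.7 FPKM in D2_Co, against 44.3 and 41.1 FPKM in D1_Co (log2 difference -0.83, SE 0.14, limma adjusted p = 0.0223), and MND1, a protein of meiotic recombination, fell as well (-0.60). The D3_Co libraries of VPS29 lay apart at 23.4 and 44.1 FPKM in D3_Co. The call of MIR5047 held in all 8 fits. Those of MIR3064, SNORD2 and MND1 were lost without any 1 of the 4 D2_Co and D1_Co libraries, that of VPS29 without these or either D3_Control library, and that of SNX1 without any of D1_Co replicate 2, the D2_Co libraries and the D3_Control libraries. Calls of RNR1 and RNA18SN1 were lost without D1_Co replicate 3 or either D2_Co library, that of BUD23 without D2_Co replicate 3 or either D1_Co library, that of ARHGAP33 without either D2_Co library and that of HIST3H2A without either D1_Co library. Exons of MIR3064, MIR5047, DDX5, SNORD2, EIF4A2, ARHGAP33, VPS29 and BUD23 overlap other genes.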

How the data were processed

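Levels came from 1 table that the authors deposited in FPKM, 1 row for each of 45961 gene numbers and 8 library columns, all mapped by their titles; 0 other sample columns were present. Per the submitters' processing notes HISAT2 2.1.0, StringTie 1.3.3b and GRCh38.p12 were used, without settings. FPKM are not counts, so no count test was run.

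In the deposited table each library had been sorted as text by gene number and value, which put values on wrong rows where a gene number begins a longer one (3394 numbers). Under that history an exact dynamic-programming search returned each value, staying closest to D1_Co replicate 2 (absolute log2 difference capped at 4). All 7 searched libraries sorted back exactly to the deposited rows. The search allows no other outcome, so this does not show that each value reached its own gene. With the decimal point kept as a character in the sort, no allowed order was found for any of the 7. Differences on moved rows can be understated. The spread within D1_Co can be understated there too, since D1_Co replicate 3 was drawn to replicate 2, and p-values can then be too small. Mean levels reached 1 FPKM on 13104 rows, of which 12449 matched a RefSeq name (assembly GRCh38.p14) and were tested, 655 were left out (3.93% to 4.43% of FPKM), 4485 had a value moved and 542 changed by over 0.25 in 10 perturbed searches and are called unsettled.

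The test was limma 3.58.1 (R 4.3.3) on log2(FPKM + 1), with 8 libraries in 4 groups, an intensity trend in eBayes, 4 residual degrees of freedom and 3.19 from the prior, and Benjamini-Hochberg adjustment over all 12449 genes. Whether each moved value reached its own gene, and whether the assumed sort history is the real one, was not tested. Gene lists (49), members and the naming rule were chosen with earlier results of these data known. Named were the 12 highest and the 12 lowest called genes with a mean of at least 5 FPKM on settled rows without overlap, up to 3 called genes in each direction per list by p-value, and a fixed set of well-known genes, while others given with a bare difference were chosen after their values were seen. Some genes that the rule names are not reported here. Lists are described by counts and medians, with no test. Transcript length, exon overlap and gene coordinates come from GENCODE 29 (GRCh38). Exon overlap was counted with any annotated gene on either strand. 14 other settings (3 of them chosen after seeing the data) and 8 fits without 1 library were run.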

Additional observations from a re-analysis of the deposited data

How the results depend on the processing

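With the replicate number as a block over all 8 libraries, a setting chosen after seeing the data, limma called 101 genes, 81 higher and 20 lower, of which 86 were among the 883, with 2 residual degrees of freedom. The labels do not say what a replicate number marks, so the block was not taken as a pairing. Deviations from the group means correlated at -0.031 to 0.043 across genes in the 7 pairs of same-numbered libraries. In groups of 2 libraries these deviations mirror each other, so the 7 pairs are not separate checks. The pair of replicate 3 in D1_Co and D2_Co, the groups compared, gave -0.001. Without the block limma called 883 genes, 526 higher and 357 lower in D2_Co. Without a filter on low values it called 344 (227 and 117), with only the D1_Co and D2_Co libraries in the fit 154 (120 and 34), and with only rows whose values stayed in place 545 (315 and 230). Quantile normalization left 205 lower genes, a fit with no intensity trend 165, and length-centred values, a setting chosen after seeing the data, 195. Fits that left out 1 library called 67 to 667 genes, 48 to 435 higher and 19 to 232 lower. The remaining settings changed no count by over 1.5 times, and 0 of the 883 genes were called in the other direction in any setting but the rows as deposited, where 28 were. The cause was not tested, other than that such rows hold values of other genes.

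On the rows as deposited the log2 difference between D2_Co and D1_Co turned its sign for these named genes, giving ACTC1 -0.60, ACTA1 -2.11, ACTG2 -2.18, FLNA -4.27, LGALS1 -1.99, TWIST1 -0.33, COL7A1 -2.17, IGFBP3 -2.08, PLAT -0.40, TFPI -1.88, MYLIP -0.51, RELA 0.58, PLAU -0.83, IFITM2 1.48, DDIT3 0.94, TXNRD1 -4.95, KLF5 -1.30, NODAL 0.27, ID1 2.58, GDF15 -1.37, COL17A1 -0.14, CCNB1 3.03, ACTB -6.44, ACTN4 -5.92, FASN -3.66 and LIF -0.17. The remaining sign changes were small. With quantile normalization the differences were HSPA5 0.003, POU5F1 0.11, ID1 0.035, MCL1 0.043, CCNB1 0.010, ACTB 0 and DDX5 0.045. With the replicate block they were SOX2 -0.001 and DDX5 0.008. With length-centred values it was ID1 0.084. Over the 8 fits that left out 1 library the differences ran from -0.051 to 0.005 for RELA, -0.021 to 0.14 for PLAU, -0.006 to 0.089 for SOX2, -0.050 to 0.023 for ID1, -0.052 to 0.19 for CDKN1A, -0.079 to 0.017 for MCL1 and -0.070 to 0.034 for DDX5. Depth limits are unknown, since FPKM carry no read numbers, and 2 libraries a group leave little to estimate the spread from.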
